A study of Mus musculus with 28 samples.

Results

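The immediate early genes are a small class of genes whose transcription starts within minutes of a stimulus and needs no new protein. In mouse heart 10 of them were followed: Fos, Fosb, Jun, Junb, Egr1, Atf3, Ier2, Btg2, Myc and Dusp1. Every probe set annotated to 1 of these gene symbols was taken, which gave 12 of the 45037 probe sets tested. Jun was read by the probe sets 1417409_at and 1448694_at and Btg2 by 1416250_at and 1448272_at, and the other 8 genes by 1 probe set each. All 10 genes were on the array.

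The values come from 28 mouse heart samples, each on 1 array, with 7 in each of 4 groups. The series' design counts the deletion strain samples as individuals. The groups were del337TR mice given WY14643, untreated del337TR mice, control mice given WY14643, and untreated control mice. WY14643 is an activator of PPARalpha, a nuclear receptor that senses fatty acids, and the series is about resistance to thyroid hormone. The labels describe del337TR only as a deletion in 337TR. The labels do not state the dose and duration of WY14643, the age and sex of the mice, whether the deletion was carried on 1 or both alleles, the receptor gene concerned, or whether untreated mice had a vehicle. Cardiomyocyte markers were bright on every array, with a summed signal over Myh6, Tnnt2, Tnni3, Actc1, Ryr2 and Myl2 between 66425.2 and 111922, as a heart label implies. The summed signal of the atrial markers Myl4, Myl7 and Sln ran from 116.4 to 33331.2 between arrays, so the amount of atrial RNA differed widely between hearts. In whole tissue, fewer cells of a type and less RNA per cell cannot be told apart.

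Growth factors, hormones, stretch and cell stress switch immediate early genes on through kinases that act on factors already bound at their promoters, such as serum response factor with its partners and CREB. Most of the products are transcription factors. Fos and Fosb proteins pair with Jun and Junb to form AP-1, Egr1 binds GC-rich sites, Atf3 is a stress-induced member of the ATF/CREB family, and Myc drives growth. Dusp1 is a phosphatase that switches the inducing MAP kinases off again, Btg2 restrains proliferation, and Ier2 is a nuclear protein whose role is less settled. In heart muscle these genes are best known as fast responders to pressure load and to adrenergic and angiotensin signals.

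Promoter sequences of 7 of the 10 genes were at hand from RefSeq (build GRCm38.p6, from 250 bases before the gene's start to 50 bases after it). Of these, 6 are printed here in their gene's own 5′ to 3′ direction, because the 5 that carry the core of a CREB and ATF site (TGACG on the gene's strand, CGTCA where it lies on the other) can be set beside Jun, which does not. Capitals mark that core, or the full palindrome TGACGTCA where it is complete. Jun lacks only the exact letters of the core: it holds TGACATCA, a single letter away from the palindrome, which an exact search does not count.
Fos, chr12:85473640-85473939, plus strand: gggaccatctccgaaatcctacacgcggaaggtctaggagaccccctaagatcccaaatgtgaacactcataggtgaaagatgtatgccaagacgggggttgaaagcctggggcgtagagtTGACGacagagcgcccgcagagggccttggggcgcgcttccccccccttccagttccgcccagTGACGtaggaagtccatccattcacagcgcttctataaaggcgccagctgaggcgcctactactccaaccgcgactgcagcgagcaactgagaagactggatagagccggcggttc
Fosb, chr7:19309996-19310295, minus strand: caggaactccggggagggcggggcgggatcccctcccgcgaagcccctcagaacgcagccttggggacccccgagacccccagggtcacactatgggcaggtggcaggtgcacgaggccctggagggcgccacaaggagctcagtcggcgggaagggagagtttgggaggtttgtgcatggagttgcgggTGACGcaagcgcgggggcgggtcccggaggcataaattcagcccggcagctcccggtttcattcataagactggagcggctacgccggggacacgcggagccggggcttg
Junb, chr8:84978699-84978998, minus strand: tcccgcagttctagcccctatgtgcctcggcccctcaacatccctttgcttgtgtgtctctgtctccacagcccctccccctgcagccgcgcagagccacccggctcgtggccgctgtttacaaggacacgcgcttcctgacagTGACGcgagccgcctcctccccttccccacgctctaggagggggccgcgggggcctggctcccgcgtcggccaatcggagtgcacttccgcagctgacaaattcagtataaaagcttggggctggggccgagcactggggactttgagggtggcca
Atf3, chr1:191183284-191183583, minus strand: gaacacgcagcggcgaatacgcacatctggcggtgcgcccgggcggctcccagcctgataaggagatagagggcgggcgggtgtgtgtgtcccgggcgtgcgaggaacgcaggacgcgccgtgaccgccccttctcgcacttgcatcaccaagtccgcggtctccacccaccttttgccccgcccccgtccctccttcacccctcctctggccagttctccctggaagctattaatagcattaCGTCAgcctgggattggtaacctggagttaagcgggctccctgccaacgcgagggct
Dusp1, chr17:26508423-26508722, minus strand: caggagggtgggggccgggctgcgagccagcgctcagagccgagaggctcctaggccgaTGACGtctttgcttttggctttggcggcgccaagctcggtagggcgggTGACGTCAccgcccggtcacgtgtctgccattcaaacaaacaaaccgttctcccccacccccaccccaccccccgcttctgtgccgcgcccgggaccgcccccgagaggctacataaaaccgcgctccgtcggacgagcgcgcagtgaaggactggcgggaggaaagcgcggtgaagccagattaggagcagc
Jun, chr4:95052173-95052472, minus strand: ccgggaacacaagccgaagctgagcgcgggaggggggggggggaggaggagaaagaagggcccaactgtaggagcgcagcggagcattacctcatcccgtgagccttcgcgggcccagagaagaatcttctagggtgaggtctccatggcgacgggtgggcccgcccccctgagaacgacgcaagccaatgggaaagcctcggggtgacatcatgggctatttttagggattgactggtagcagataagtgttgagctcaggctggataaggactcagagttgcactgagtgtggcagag

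The core TGACG was present on either strand in 6 of the 7 promoters (Fos, Fosb, Junb, Atf3, Btg2 and Dusp1), against 20.8% of the 32851 mouse promoters of the same length. In Fos the core began 129 and 66 bases before the start, in Fosb 60, in Junb 106 and in Atf3 7 bases before it. The palindrome TGACGTCA, which contains the core on both strands, was found in Btg2, 166 bases before the start, and in Dusp1, 143 bases before it, against 1.79% of all promoters. Fos held TATAAA 33 bases before its start and Junb held the same letters at its start, against 13.6% of all promoters. The EGR site GCGNGGGCG was found in Fosb and Btg2, against 5.55%. Neither TGANTCA, the AP-1 site, nor the CArG box, which serum response factor binds, was found in these 7 windows on either strand, against 7.81% and 1.63% of all promoters. A match is a run of letters and not a measured binding site. The Btg2 promoter lies at chr1:134079106-134079405 on the minus strand.

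Of the AP-1 subunits, Fosb was dim, with signals near the median of the array, and Fos, Junb and Jun were brighter than that. Fos had scaled signals of 241.7, 378 and 1015.2 (lowest, median and highest of 7 arrays) in del337TR with WY14643, 269.7, 463.7 and 980.7 in untreated del337TR, 158.5, 389 and 781.1 in controls with WY14643, and 183.9, 404 and 884.1 in untreated controls. The 4 groups covered the same range, so hearts of 1 group differed by more than the groups did. Fosb, its close relative, had 39.5, 72.8 and 183.5 in del337TR with WY14643, 46, 65.3 and 89.5 in untreated del337TR, 49.8, 62.4 and 86.9 in controls with WY14643, and 35.2, 61.8 and 89.4 in untreated controls. The value of 183.5, on array 5 of del337TR with WY14643, lay far above every other array, of which the next highest had 94.1.

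Junb had 138.9, 238.8 and 422 in del337TR with WY14643, 91.4, 164.8 and 532 in untreated del337TR, 103.3, 164.4 and 233.8 in controls with WY14643, and 135.7, 149.4 and 216.1 in untreated controls. Its highest values were on array 1 of untreated del337TR and array 5 of del337TR with WY14643. The brighter Jun probe set, 1417409_at, had 613.4, 1044.8 and 1340 in del337TR with WY14643, 753, 908 and 1940.1 in untreated del337TR, 645.5, 782.1 and 1339.2 in controls with WY14643, and 631.6, 1106.3 and 1610.1 in untreated controls. The order of the medians differed between the Jun probe sets. The other, 1448694_at, had 510.1, 695.2 and 998.5 in del337TR with WY14643, 635.8, 795.3 and 975.6 in untreated del337TR, 606.1, 675.3 and 861.5 in controls with WY14643, and 566.7, 645.7 and 838.8 in untreated controls. Groups overlapped in every one of these comparisons.

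The 3 other transcription factors showed their highest values in del337TR hearts. Egr1 had 417.8, 988 and 2385.3 in del337TR with WY14643, 283, 547.2 and 1391.2 in untreated del337TR, 316.7, 446.7 and 1145.2 in controls with WY14643, and 244.9, 436.4 and 785.7 in untreated controls. Its group medians were thus highest in del337TR with WY14643, although 3 of those 7 arrays, at 417.8, 481.8 and 498.1, lay within the range of untreated controls. Atf3 had 164.2, 514 and 2299.2 in del337TR with WY14643, 126.6, 399.4 and 498.4 in untreated del337TR, 176.9, 287.2 and 385.3 in controls with WY14643, and 131.5, 262.3 and 437.7 in untreated controls. The top value again belonged to array 5, and the next highest on any array was 626.5. Myc had 65.8, 80.9 and 259.9 in del337TR with WY14643, 50.4, 91 and 221.3 in untreated del337TR, 26.2, 62.6 and 97.7 in controls with WY14643, and 16.9, 83.8 and 99.3 in untreated controls. For all 3 genes the groups overlapped.

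Ier2, Btg2 and Dusp1 varied less. Ier2 had 290.7, 359.6 and 652.9 in del337TR with WY14643, 288, 404.1 and 428 in untreated del337TR, 279.6, 373.4 and 402.1 in controls with WY14643, and 279.4, 329.5 and 423.4 in untreated controls. Btg2 by 1416250_at had 477.7, 548.7 and 1145.1 in del337TR with WY14643, 492.6, 577.6 and 794.8 in untreated del337TR, 402.7, 577.5 and 656 in controls with WY14643, and 320.2, 470 and 548.5 in untreated controls. Of the 7 untreated del337TR arrays 4 lay above all 7 untreated controls on that probe set. By 1448272_at Btg2 had 267.7, 646.6 and 850.5 in del337TR with WY14643, 432.2, 516.8 and 815.5 in untreated del337TR, 306.7, 357.3 and 561.7 in controls with WY14643, and 390, 460.1 and 687.4 in untreated controls. Dusp1, the phosphatase, had 2797.4, 3333.1 and 4089.3 in del337TR with WY14643, 2383.7, 3718 and 4030.9 in untreated del337TR, 3603.5, 3948.9 and 4909.3 in controls with WY14643, and 2663.4, 3785.1 and 4839.7 in untreated controls. Of the 7 del337TR arrays with WY14643, 6 lay below all 7 controls with WY14643, whereas the untreated groups covered much the same range.

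**Figure D1:**
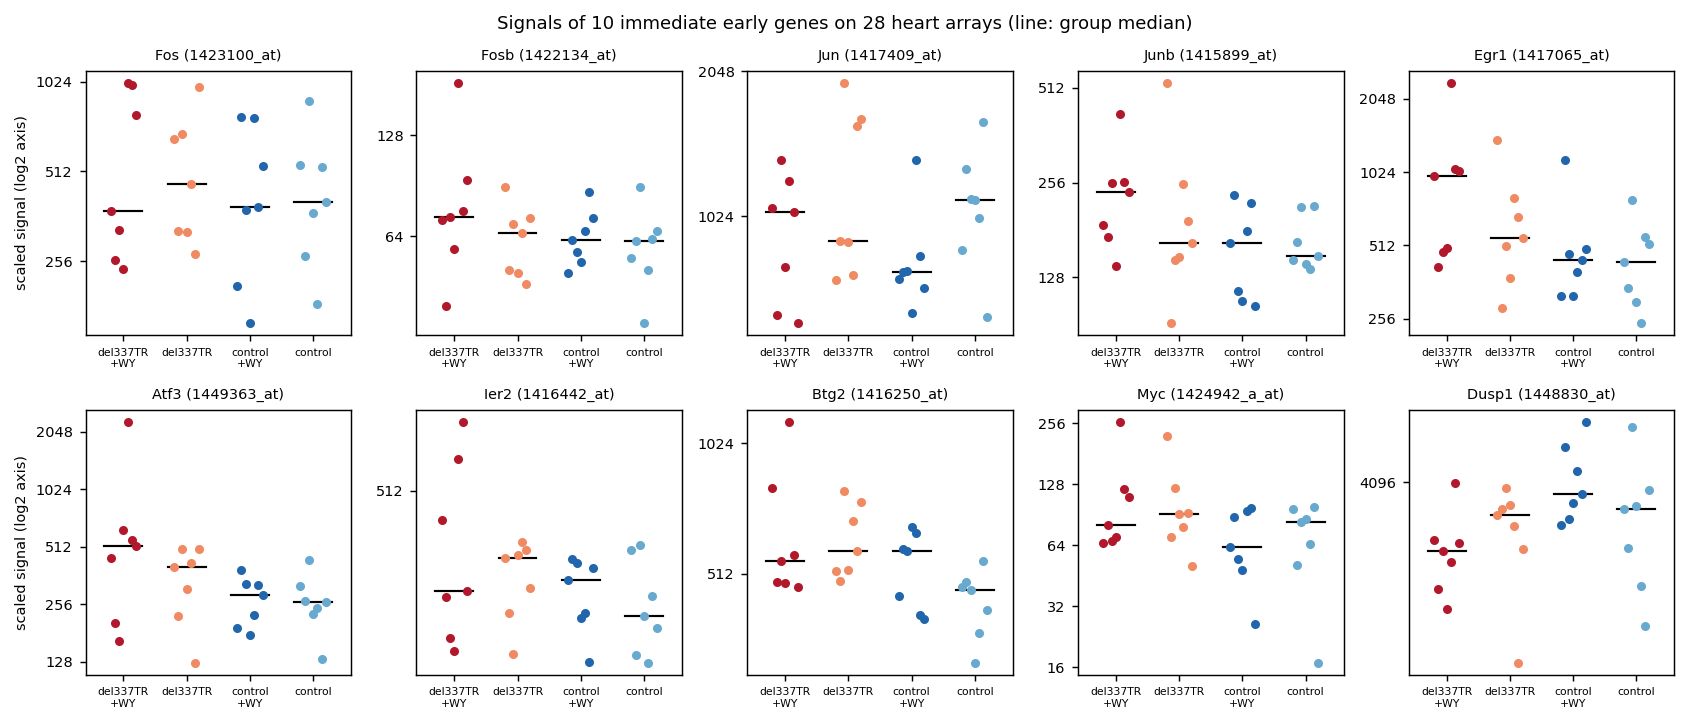
Scaled signal (vertical axis, log2 scale) of the 10 genes, each by its brightest probe set, on 7 arrays in each of 4 groups (horizontal axis). Points are arrays and lines are group medians. Single arrays stand out, such as the Atf3 value of 2299.2 and the Egr1 value of 2385.3 in del337TR with WY14643, while the groups overlap for all 10 genes.

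The spread between hearts of 1 group was itself large for many of these genes. Within groups the log2 signal of Fos had an SD of 0.81, that of Atf3 0.79 and that of Egr1 0.72, above 99.6%, 99.4% and 99.3% of the probe sets of like brightness (within 0.5 log2). Such probe sets had median SDs of 0.21, 0.23 and 0.20. Jun by 1417409_at and Junb had SDs of 0.45 and 0.55, above 97.7% and 95.2% of their like. The shares were 94.6% and 90.6% for Btg2, 88.7% for Myc, 84.8% for Dusp1, 80.2% for the second Jun probe set and 77.6% for Ier2. Fosb, a dim probe set, had an SD of 0.45, above only 39.3% of probe sets as dim as it. Probe sets of the same gene moved alike, with within-group correlations of 0.72 for Jun and 0.63 for Btg2 over 28 arrays (rho 0.74 and 0.62).

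Array by array, the genes were high or low partly together. To see this, each log2 signal was set against its own group's mean, so that differences between groups play no part. Array 5 of del337TR with WY14643 stood above its group mean in 9 of 10 genes, with a mean deviation of 1.76 within-group SDs, and array 2 of the same group below it in all 10, at -1.08. Array 3 of the untreated controls was above its group mean in 10 of 10 genes, at 0.97. Array 1 of untreated del337TR and array 2 of controls with WY14643 were each above in 8 of 10, both at 0.71. At the low end, array 4 of del337TR with WY14643 stood at -0.87, array 2 of untreated del337TR at -0.76 and array 5 of untreated controls at -0.63, each with 1 of 10 genes above the group mean.

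**Figure D2:**
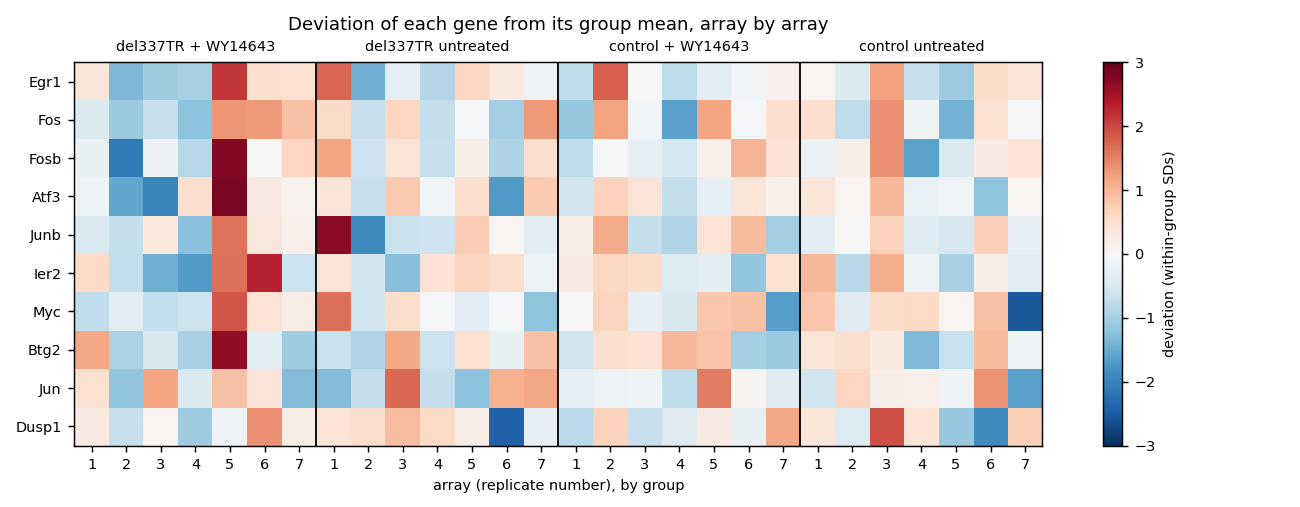
Deviation of each gene (rows) from its group mean on each of the 28 arrays (columns, by group and replicate number), in within-group SDs. Columns of mostly 1 colour, such as array 5 of del337TR with WY14643 with 9 of 10 genes above the mean and array 2 with 0 of 10, are hearts in which most of the genes deviate the same way.

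Over the 45 pairs of the 10 genes the median within-group Pearson correlation was 0.37 (median rho 0.32), and 40 of the 45 were above 0. The range was -0.19 to 0.76. Of the pairs 13 had a correlation over 0.5, against 1.07% of all correlations between a probe set on the array and a member. The median over all such correlations was 0.01. Taken in each group alone, the median of the 45 pairs was 0.64 in del337TR with WY14643, 0.22 in untreated del337TR, 0.25 in controls with WY14643 and 0.38 in untreated controls, over 7 arrays each, and these medians were not tested against each other. Without array 5 of del337TR with WY14643 the median over the remaining arrays was 0.26, with group means taken again over the arrays that stayed, as in all values without an array.

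The pair correlations were uneven. Egr1 had its strongest correlations with Junb (0.76), Fosb (0.73), Fos (0.71), Ier2 (0.64) and Atf3 (0.60). Fosb correlated with Atf3 at 0.71, with Fos at 0.66 and with Junb at 0.61, and Junb with Myc at 0.63. Jun stood apart from its own AP-1 partners: its 9 pairs had a median correlation of 0.09 and a highest of 0.49, with Btg2. Jun correlated with Fos at 0.27, with Fosb at 0.18, with Junb at 0.09, and with Egr1 at 0.03. Dusp1 had a median of 0.26 over its 9 pairs, and its highest was 0.54, with Fos. Its correlation with Jun was the lowest of the 45, at -0.19. The 28 pairs without Jun and Dusp1 had a median of 0.46. Jun and Dusp1 had the lowest medians of the members, so a rise without them was built in. The second Jun probe set gave higher values than the first in each of its 9 pairs, among them Egr1 (0.41), Fosb (0.37), Fos (0.35) and Btg2 (0.67). How far Jun stands apart thus depends on the probe set. The second Btg2 probe set was at 0.60 with Fos, 0.63 with Fosb and 0.54 with Jun, where the first was at 0.37, 0.51 and 0.49. It was lower than the first with Atf3, Ier2 and Myc.

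**Figure D3:**
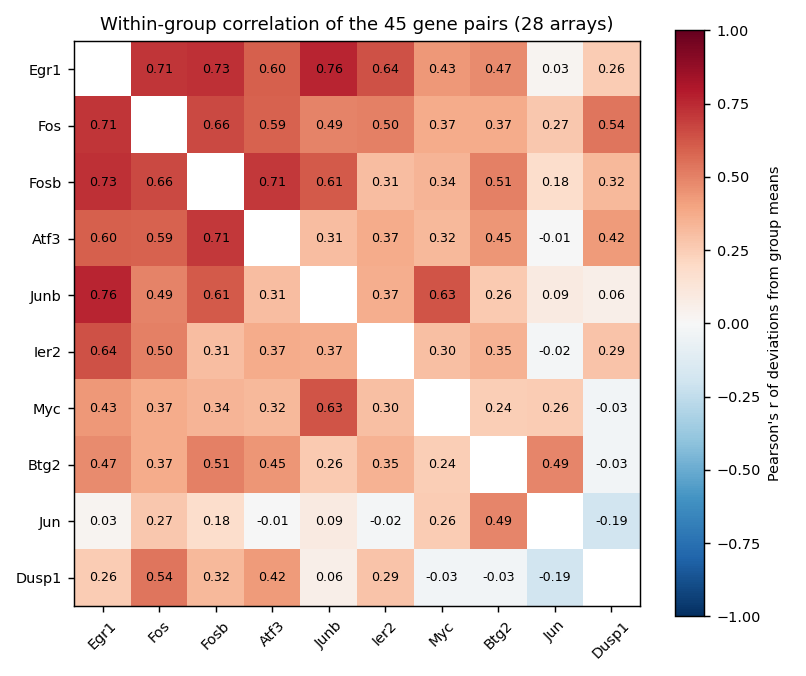
Pearson correlation of deviations from the group means for the 45 pairs of the 10 genes over 28 arrays, from -1 (blue) to 1 (red). Egr1 with Junb is the highest at 0.76, Junb with Atf3 is at 0.31, and the 9 pairs of Jun have a median of 0.09.

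Single pairs were tested by permuting deviations within groups (100000 permutations, two-sided), and 18 of the 45 had a permutation p under 0.05. These p-values were not adjusted for the 45 pairs, which share genes, and the test was not run on all probe sets for comparison. Egr1 and Junb had a Pearson correlation of 0.76 with a permutation p of 1e-05, the smallest that the permutations can give, and a rho of 0.69 (permutation p = 1.0e-04). Without arrays 1 and 2 of untreated del337TR, the farthest from the median of Junb, it was 0.69. Within groups the correlation of this pair was 0.79 in del337TR with WY14643, 0.97 in untreated del337TR, 0.47 in controls with WY14643 and 0.79 in untreated controls. Egr1 and Fos stood at 0.71 (permutation p = 3e-05, rho 0.72 with permutation p = 5e-05), and at 0.68 without the 2 farthest arrays. Within groups this pair was at 0.86 in del337TR with WY14643, 0.37 in untreated del337TR, 0.70 in controls with WY14643 and 0.91 in untreated controls. Egr1 and Fosb stood at 0.73 (permutation p = 6e-05, rho 0.66 with permutation p = 5.7e-04), and at 0.61 without the 2 farthest arrays. Fosb and Atf3 depended more on 2 hearts, since their correlation of 0.71 (permutation p = 0.00129, rho 0.59 with permutation p = 0.00264) was 0.45 without arrays 5 and 2 of del337TR with WY14643.

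The same question was put to the whole array by fitting every probe set on the 4 group means plus the log2 signal of 1 member, with limma, and adjusting p-values over all other probe sets by Benjamini and Hochberg. Egr1 followed Junb past the threshold of 0.05 (adjusted p = 0.0352), 1 of 8 probe sets that did, or 0.0178% of 45036. With the roles turned, Junb missed the threshold with Egr1 as the covariate (adjusted p = 0.0599). Egr1 followed Junb in 15 of 28 fits that each left out 1 array, and the lowest correlation of these, 0.72, was without array 1 of untreated del337TR. No other pair of members passed (lowest adjusted p 0.121, Fosb with Atf3 as the covariate).

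What followed these genes most closely outside the list was Socs3, the feedback inhibitor of cytokine signalling through JAK and STAT. Its probe set 1455899_x_at had 262.2, 323 and 2548.4 (lowest, median and highest) in del337TR with WY14643, 160.4, 269.2 and 1864.7 in untreated del337TR, 192.3, 256.9 and 427.5 in controls with WY14643, and 137.8, 249 and 646.2 in untreated controls. The highest arrays of the 4 groups, numbers 5, 1, 2 and 3 in that order, were also the highest for Egr1 in each group. With Egr1 as the covariate 3 probe sets passed, 0.00666% of 45036, and all 3 read Socs3. The correlation of 1455899_x_at with Egr1 was 0.88 (rho 0.86, permutation p = 1e-05 for both, the smallest possible), with an adjusted p of 1.3e-04 in limma. It was 0.91, 0.91, 0.86 and 0.94 within del337TR with WY14643, untreated del337TR, controls with WY14643 and untreated controls. It kept its call in 28 of 28 fits without 1 array, with correlations between 0.84 and 0.91, and stood at 0.86 without the 2 arrays farthest from the median of Egr1. Without both arrays with the highest Egr1, a setting chosen after seeing the data, the correlation was 0.81 and the adjusted p 0.0693. The other Socs3 probe sets, 1456212_x_at and 1416576_at, had correlations of 0.82 and 0.80 with Egr1 (adjusted p = 0.00480 and 0.00940), and both calls were lost without array 1 of untreated del337TR or array 5 of del337TR with WY14643.

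**Figure D4:**
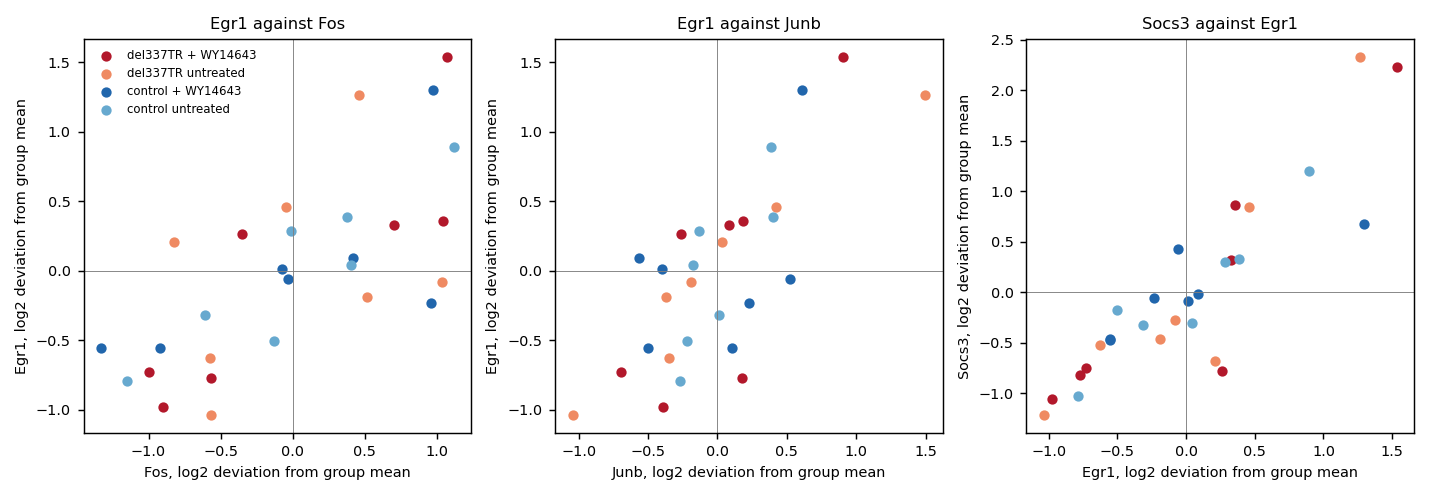
Log2 deviations from the group mean on 28 arrays: Egr1 against Fos, Egr1 against Junb, and Socs3 (1455899_x_at) against Egr1. Each point is an array, coloured by group. The correlations over all arrays are 0.71, 0.76 and 0.88. Within groups they are as low as 0.37 for Egr1 with Fos (untreated del337TR) and 0.47 for Egr1 with Junb (controls with WY14643), and 0.86 or more for Socs3 with Egr1.

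Junb was followed by 7 further probe sets, all upward. They were 2 probe sets of Socs3 (correlations 0.84 and 0.82) and 1 each of Nfkbiz, an inflammatory regulator of the NF-kappaB family (0.79), Ptx3, a secreted pentraxin of innate immunity (0.78), Icam1, an adhesion molecule of inflamed endothelium (0.78), Tnfaip6, a hyaluronan-binding protein induced by TNF (0.77), and Selp, P-selectin of platelets and endothelium (0.76). Their adjusted p-values ran between 0.00400 and 0.0363. Array 1 of untreated del337TR held the highest value of several of them. Icam1 had 120, 195 and 1026.5 in untreated del337TR, against 139.1, 216 and 278.2 in untreated controls. Nfkbiz had 91.7, 113 and 1058.8 in untreated del337TR and 96.6, 145.3 and 177.7 in untreated controls. Selp had 8.3, 17.8 and 257.5 in untreated del337TR and 8.6, 12.4 and 21.9 in untreated controls. Each of the 7 calls was lost without that array, with correlations of 0.60 to 0.76 among Selp, Icam1, Nfkbiz, Ptx3 and Socs3. The number of 28 such fits in which the call was kept was 27 for each Socs3 probe set, which lost it without that array alone, 25 for Nfkbiz, 23 for Ptx3, 22 for Icam1, 17 for Tnfaip6 and 14 for Selp. Tnfaip6 had its lowest leave-out correlation, 0.73, without array 5 of del337TR with WY14643, and a correlation of 0.85 without arrays 1 and 2 of untreated del337TR.

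Atf3 was followed by 4 probe sets (0.00888% of 45036). Nfe2l2, which encodes the antioxidant regulator Nrf2, had a correlation of 0.79 (adjusted p = 0.0293) and Fem1c, a substrate receptor of a ubiquitin ligase, 0.79 (adjusted p = 0.0421). The Nfe2l2 probe set was dim. Its median signals were 65.2 in del337TR with WY14643, 39 in untreated del337TR, 40.8 in controls with WY14643 and 30.5 in untreated controls. Zfp213, a zinc finger gene, ran the other way at -0.82 (adjusted p = 0.0290), and 1 probe set had no gene name in the annotation. All 4 calls were lost without array 5 of del337TR with WY14643, where Atf3 was highest, and the correlation of Zfp213 was then -0.67. Other arrays mattered as well, since of 28 fits without 1 array the call was kept in 22 for Zfp213, 18 for Nfe2l2, 13 for Fem1c and 6 for the unnamed probe set. Myc was also followed by 4 probe sets (0.00888%): Odf2, a centriole component, at -0.86 (adjusted p = 0.00564), Pacsin3, a membrane-shaping protein, at 0.84 (adjusted p = 0.0126), Strip2 at 0.79 (adjusted p = 0.0482) and 1 without a gene name. All 4 were lost without array 7 of the untreated controls, the heart with the lowest Myc, and Odf2 then stood at -0.79 and Pacsin3 at 0.77. Odf2 and Pacsin3 kept their calls in the other 27 fits, the unnamed probe set in 26 of 28 and Strip2 in 8 of 28. Dusp1 was followed by 3 probe sets (0.00666%). Csrnp1, itself an immediate early nuclear protein, had a correlation of 0.82 (adjusted p = 0.0140), Marcks, a substrate of protein kinase C at the membrane, -0.82 (adjusted p = 0.0158), and Myct1 -0.78 (adjusted p = 0.0273). Myct1 was dim too, with median signals of 32.7, 45.9, 52.3 and 53.7 in the same order of groups. These 3 calls were lost without array 6 of untreated del337TR or array 6 of the untreated controls, the lowest Dusp1 arrays. Csrnp1 and Marcks kept theirs in 26 of 28 fits and Myct1 in 21. With Fos, Fosb, Ier2, Jun or Btg2 as the covariate 0 probe sets passed (0%). The partner genes in these fits, apart from Socs3 and Fem1c, were named after their values were seen.

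The genes most like Fos over the 28 arrays, by within-group correlation, were Nr4a1 (0.76), an orphan nuclear receptor of the immediate early class, Klf4 (0.74), a Krüppel-like transcription factor, Tra2b (0.74), a splicing factor, Irs2 (0.73), the insulin receptor substrate, and Rap1b (0.71), a small GTPase. Socs3 (0.70), Tln1 (0.70), Neurog3 (0.69), Tmcc3 (0.67) and Faap20 (0.66) came next. Neurog3 and Faap20 were dim, with mean signals of 10.2 and 37.5 against array medians of 60 to 77.8, and Irs2 was at 64.7. The genes most like the mean deviation of the 10 members were Socs3 (0.83), Klf4 (0.79), Tmcc3 (0.77), Rap1b (0.76), Fem1c (0.73), Nr4a1 (0.72), Rabl3 (0.72), Hnrnpdl (0.72), Ppp1r15a (0.70) and Arid5a (0.70). Without array 5 of del337TR with WY14643 these 10 stood between 0.55 (Ppp1r15a) and 0.77 (Klf4).

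A wider list of 38 other immediate early genes, all measured, moved with the 10. Of these 38 genes 32 correlated above 0 with the mean deviation of the members, against 52.0% of all probe sets, and 12 above 0.5, against 0.822%. Their median correlation was 0.35. Besides Socs3, Klf4, Nr4a1 and Ppp1r15a, a regulator of the stress-induced block in translation, they included Fosl2 (0.67), a further AP-1 subunit, Maff (0.66), a small Maf factor, Klf2 (0.60) and Egr2 (0.59). Nr4a2 (0.05), Nfkbia (0.01), Egr3 (-0.02), Per1 (-0.07) and Snai1 (-0.18) did not share this. Of 12 feedback inhibitors of the kinase pathways 10 were above 0, with Dusp10 at 0.60 and Dusp6, the ERK phosphatase, at 0.18. Of 13 measured target genes of AP-1 and EGR factors 11 were above 0, led by Hbegf (0.62), an EGF-family growth factor, Il6 (0.44) and Cd44 (0.43). The 14 measured genes for upstream kinases and factors had a median of -0.17, with Srf at 0.06, Elk1 at 0.19 and Creb1 at -0.40. Of 6 heat shock chaperones Dnajb1 was highest at 0.44 and Hsph1 lowest at -0.48, with a median of 0.06.

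Markers of cell types and measures of the arrays were set beside the mean deviation of the 10 genes. The summed cardiomyocyte markers ran against it (-0.32), and the 6 genes lay between -0.33 and -0.23. The summed signal was 70510.2 on array 5 of del337TR with WY14643 and 69802.3 on array 1 of untreated del337TR, near the low end of the 28 arrays. Leukocyte markers had a correlation of 0.30 by summed signal and a median of 0.21 over 8 genes. The 8 ran from -0.22 to 0.54 (Cd68), with Ptprc at -0.04 and 6 above 0. The sums were 0.03 for endothelial, 0.02 for fibroblast, -0.21 for smooth muscle and pericyte, 0.06 for atrial, -0.14 for erythroid and 0.05 for adipocyte markers. The actin 3′ to 5′ ratio of the array controls had a correlation of -0.03, that of Gapdh 0.02, the median signal of the array 0.17, Xist 0.07 and Eif2s3y -0.12. The groups differed in their share of males. The male-specific Eif2s3y had a median signal of 3.8 in untreated del337TR, where most hearts were thus female. Its medians were 538.4 in del337TR with WY14643, 503.9 in controls with WY14643 and 527.9 in untreated controls, where most were male. Each group held both sexes, however. Untreated del337TR had low Eif2s3y values of 1.5, 1.4, 1.3 and 3.8 and high ones of 494.7, 648.8 and 636.5. The low values were 15 in del337TR with WY14643, 2.2, 1.1 and 33.2 in controls with WY14643, and 15.1 and 3.1 in untreated controls. The share of males therefore differed in each comparison of single groups. With Xist and Eif2s3y, the atrial markers or the actin ratio as covariates the median of the 45 pairs was 0.36, 0.36 and 0.38. The part of cardiomyocyte and leukocyte markers in the covariation was not tested.

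Between the strains the genes leaned upward in del337TR without a call. Averaged over both treatments, 11 of the 12 probe sets were higher in del337TR than in controls, against 52.4% of all probe sets, with a median log2 difference of 0.29 against 0.01. Egr1 was higher by 0.64 ± 0.27 on the log2 scale (± limma's SE, 1.56-fold), Myc by 0.62 ± 0.28 (1.54-fold) and Atf3 by 0.60 ± 0.29 (1.52-fold). Btg2 was higher by 0.36 ± 0.13 and 0.33 ± 0.15 by its probe sets, and Junb by 0.38 ± 0.20. Fos stood at 0.26 ± 0.30, Fosb at 0.19 ± 0.17, Ier2 at 0.17 ± 0.11 and Jun at 0.14 ± 0.17 and 0.15 ± 0.10. Dusp1 was the exception at -0.17 ± 0.09. By limma 0 of the 12 had an adjusted p under 0.05 (lowest 0.575, Btg2), and 0 of the 45037 probe sets (0%). At an unadjusted p under 0.05 there were 5 of 12 higher (Btg2 by both probe sets, Egr1, Myc and Atf3), against 4.09% of all. The 12 are not independent, since the genes were correlated within groups and Jun and Btg2 are each counted by both probe sets. Such counts, here and in the comparisons below, therefore weigh less than those of unrelated probe sets.

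**Figure D5:**
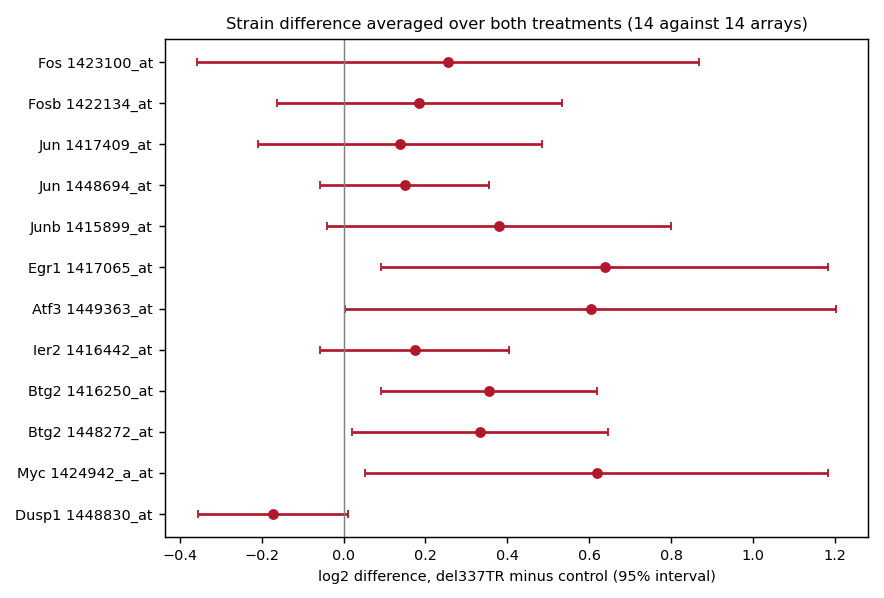
Log2 difference between del337TR and control averaged over both treatments (horizontal axis) for the 12 probe sets (rows), with 95% intervals from limma over 28 arrays. Of the 12 points 11 lie to the right of 0, up to 0.64 for Egr1, and Dusp1 lies to the left at -0.17.

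Part of this lean rested on 2 hearts, both of del337TR and chosen after seeing the data for their high Egr1. No high control array was left out beside them, so a fall of the Egr1 difference was built in. Without array 5 of del337TR with WY14643 and array 1 of untreated del337TR, those with the highest Egr1, the differences were 0.40 for Egr1, 0.39 for Atf3, 0.40 for Myc and 0.18 for Junb. Btg2 stood at 0.30 and 0.27, Fosb at 0.04 and Dusp1 at -0.18. Smaller differences moved with single arrays too: Fos was at 0.14 without array 4 of controls with WY14643, Fosb at 0.08 without array 5 of del337TR with WY14643, and Jun by 1417409_at at 0.07 without array 3 of untreated del337TR. All 12 probe sets kept their direction in this comparison under every alternative run. Markers of other cells moved with strain as well. The 7 fibroblast markers were all higher in del337TR (median log2 difference 0.21), with sums of 18499.1 to 22538.7 in del337TR with WY14643, 19272.8 to 24414.6 in untreated del337TR, 16350.7 to 21175.5 in controls with WY14643 and 16889.7 to 21644.9 in untreated controls. The 3 atrial markers were higher too (median 1.35), with median sums of 9345.2, 9477.6, 3550.3 and 1760.4 in the same order. No member passed with the atrial markers as a covariate, and none did without it, so that fit did not test their part in the strain differences. The part of the fibroblast markers was not tested.

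The strain comparison was also made under each treatment. With WY14643, 11 of 12 were higher in del337TR, against 55.6% of all probe sets. Atf3 was higher by 0.87 ± 0.41, Egr1 by 0.82 ± 0.38, Myc by 0.66 ± 0.39, Junb by 0.56 ± 0.29 and Btg2 by 0.49 ± 0.22 (1448272_at) and 0.23 ± 0.18 (1416250_at). Dusp1 was lower by 0.31 ± 0.13 on the log2 scale (a difference of -0.31). None was called by limma (lowest adjusted p 0.483, Dusp1), as were 0% of all probe sets. At an unadjusted p under 0.05, 3 were higher (Egr1, Atf3 and Btg2 by 1448272_at, against 5.25% of all) and 1 lower (Dusp1, against 3.61%). Without array 5 of the del337TR group with WY14643 the difference of Atf3 was 0.50, that of Egr1 0.57, that of Myc 0.43 and that of Btg2 by 1416250_at 0.08. Adipocyte markers differed in the same comparison: Adipoq, Cidec and Retn, the 3 measured of 5, were all lower in del337TR at an unadjusted p under 0.05 (median log2 difference -0.90, 0 called). Their summed signal was 59.6 to 188.3 in del337TR with WY14643, 179.1 to 393.2 in untreated del337TR, 142.5 to 294.6 in controls with WY14643 and 136.6 to 414.3 in untreated controls. Their part in the strain difference was not tested. By Eif2s3y controls with WY14643 held more female hearts than del337TR with WY14643, and the part of sex was not tested.

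Without WY14643, 11 of 12 were again higher in del337TR, against 47.8% of all. Myc stood at 0.58 ± 0.39, Btg2 by 1416250_at at 0.48 ± 0.18, Egr1 at 0.45 ± 0.38 and Atf3 at 0.34 ± 0.41. None was called by limma (lowest adjusted p 0.999), against 1 of 45037 probe sets (0.00222%). At an unadjusted p under 0.05 there was 1, Btg2 by 1416250_at, against 1.66% of all. By its other probe set, 1448272_at, Btg2 stood at 0.18 ± 0.22. Dusp1 stood at -0.04 ± 0.13, with no settled sign, and Junb at 0.20 ± 0.29. These values moved with single arrays: without array 1 of untreated del337TR Junb was at -0.049 and Egr1 at 0.24, without array 7 of the untreated controls Myc was at 0.26, and Atf3 was at 0.18 without array 6 of the untreated controls and 0.56 without array 6 of untreated del337TR. By Eif2s3y untreated del337TR held both sexes with a narrow majority of females, and most untreated controls were male. No member passed with Xist and Eif2s3y as a covariate, and none did without it, so that fit did not test the part of sex. The strain comparisons under each treatment share no arrays with each other but are both contained in the average.

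With WY14643 none of these genes passed the threshold. Averaged over both strains, 8 of 12 were higher and 4 lower with WY14643 (48.5% of all probe sets were higher), between -0.33 and 0.32 on the log2 scale. Jun by 1417409_at was the lowest at -0.33 ± 0.17, and Egr1 and Atf3 stood at 0.32 ± 0.27 and 0.31 ± 0.29. Jun by 1448694_at was at -0.03 ± 0.10, and Btg2 at 0.13 ± 0.13 by 1416250_at and -0.20 ± 0.15 by 1448272_at. In del337TR hearts Atf3 stood at 0.58 ± 0.41 and Egr1 at 0.51 ± 0.38. Jun was at -0.16 ± 0.14 by 1448694_at and at -0.30 ± 0.24 by 1417409_at. Without array 5 of del337TR with WY14643, Atf3 was at 0.21 and Egr1 at 0.25 in del337TR, and at 0.13 and 0.19 in the average over strains. Without array 3 of untreated del337TR, Jun by 1417409_at was at -0.17 in del337TR. By Eif2s3y most del337TR hearts were male with WY14643, and a narrow majority was female without it. No member passed with Xist and Eif2s3y as a covariate, and none did without it, so that fit did not test the part of sex. The 3 adipocyte markers were also lower with WY14643 in del337TR (median -1.30, all 3 at an unadjusted p under 0.05, 0 called), and their part was not tested. In control hearts Jun stood at -0.36 ± 0.24 by 1417409_at but at 0.10 ± 0.14 by 1448694_at. The 12 ranged up to 0.26 ± 0.18, for Btg2 by 1416250_at, which stood at -0.35 ± 0.22 by 1448272_at. By limma 0 of 12 were called in each of these comparisons, with lowest adjusted p-values of 0.692, 0.909 and 0.781, and 0 of 12 had an unadjusted p under 0.05. Over all probe sets 0% were called, and 7.5%, 5.78% and 6.75% had an unadjusted p under 0.05 in the average, in del337TR and in controls.

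Whether WY14643 acted differently in the strains was tested as the difference of its effects, del337TR minus control. Atf3 had 0.54 ± 0.58 and Egr1 0.37 ± 0.53 on the log2 scale, and the 12 probe sets lay between -0.27 and 0.54. Without array 5 of del337TR with WY14643 Atf3 was at 0.16 and Egr1 at 0.11, and without array 2 of controls with WY14643 Egr1 was at 0.59. None passed (lowest adjusted p 0.956, 0% of all probe sets called), and 0 of 12 had an unadjusted p under 0.05, against 4.9% of all. The 95% interval of the difference was -0.66 to 1.74 for Atf3 and -0.72 to 1.46 for Egr1, and both intervals include 0.

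Of the 38 other immediate early genes, 26 were higher in del337TR averaged over both treatments, against 52.4% of all probe sets, with a median log2 difference of 0.10 against 0.01, and 0 were called. With WY14643 averaged over both strains they split into 19 higher and 19 lower, against 48.5% and 51.5% of all probe sets. Of the 12 feedback inhibitors 9 were higher in del337TR (median 0.13), and 11 of 12 were lower with WY14643 (median -0.17 against -0.01 over all probe sets), none of them called. The 6 heat shock chaperones were all higher with WY14643 (median 0.21), again with 0 called. Of the 13 AP-1 and EGR target genes 8 were higher in del337TR (median 0.05) and 8 higher with WY14643 (median 0.06). These counts stand against the same shares of all probe sets, and no difference between lists was tested.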

How the data were processed

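Per the labels' protocols, RNA of frozen heart was made into biotinylated cRNA. The names of the probe sets are of Affymetrix type. The deposited values are linear intensity values, 1 per probe set and array. The submitters' processing notes name RMA, but the values run from 0 to 26183.2 and their mean, with 2% trimmed at each end, is 250.0 on every array. They were therefore used as linear signals scaled to a common mean. Scan dates, batches and the version of RMA: not given in the sources used here.

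Signals were floored at 0.1 (3 values were 0) and log2 transformed. Array control probe sets were left out. Genes were named from the platform annotation, in which 34945 probe sets have 1 symbol. Group means of all 28 arrays were fitted with limma 3.58.1 in R 4.3.3 (24 residual degrees of freedom, two-sided), and 7 contrasts were adjusted by Benjamini and Hochberg over 45037 probe sets. Pairs of genes were compared by correlation of deviations from group means, with 100000 permutations within groups, and by limma fits with 1 member as a covariate. A gene with several probe sets was represented by the brightest. The scripts were tested on simulated data.

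Of 378 array pairs 0 were identical. Same-numbered arrays of different groups did not deviate together. The series' design calls the deletion strain samples individuals. For the controls no such word is given, so their spread may in part be technical. The number of arrays limits the precision. The members and the gene lists (38 other immediate early genes, kinases and factors, feedback inhibitors, targets, chaperones and cell type markers, 127 of 138 entries measured) were chosen with earlier results of these data known. Named were all member probe sets, up to 3 genes per list by smallest p or strongest correlation with the mean of the members, and the 10 genes most like Fos and most like that mean; other names were chosen after their values were seen. Alternatives covered the treatment and filtering of low values, normalization, variance models, covariates for sex, atrial tissue and RNA quality, a replicate block, and leaving out arrays.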

Additional observations from a re-analysis of the deposited data

Results flagged for a closer look

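In 5 of 48 sets of 7 arrays (12 probe sets in 4 groups) the highest or the lowest array lay apart from the others by Dixon's criterion on the log2 scale, where chance alone gives about 1 in 20 sets. Jun by 1417409_at had 1339.2 on array 5 of the controls with WY14643, where the next highest was 844.2, and Jun by 1448694_at had 838.8 on array 6 of the untreated controls, next to 664.1. Egr1 had 1145.2 on array 2 of the controls with WY14643, where the next was 495.6. Myc was lowest on array 7 of the untreated controls at 16.9, with 51.3 as the nearest value. Dusp1 was lowest on array 6 of untreated del337TR at 2383.7, with 3348.6 as the nearest.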

How the results depend on the processing

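No member probe set was called in any of the 7 comparisons under any alternative run. The median correlation of the 45 pairs stayed between 0.26 (without array 5 of del337TR with WY14643) and 0.43 (with a replicate block). Calls of 1 member following another past the threshold were counted by direction, so a pair that passes both ways counts as 2. This number, 1 as reported, was 2 with 16 added before the log and 2 with quantile normalization. It was 3 when the dimmer probe sets, up to the 40th percentile, were dropped. It was 0 with median centring, with the replicate block, with the Xist and Eif2s3y covariate, and without both arrays with the highest Egr1. It ran between 0 and 2 when single arrays were left out. The cause of these changes was not tested, except that fewer probe sets were tested under the filter and fewer arrays without the high ones. Without WY14643 the strain difference of Junb was between -0.049 (without array 1 of untreated del337TR) and 0.37 when single arrays were left out, and -0.049 without both arrays with the highest Egr1. That of Dusp1 was 0.015 with array weights and between -0.11 and 0.053 when single arrays were left out. The cause was not tested. The replicate numbers did not pair the arrays (42 same-numbered pairs, correlations of -0.06 to 0.10, median 0.02). With the replicate block the strain difference of Egr1, averaged over both treatments, was 0.64 with an adjusted p of 0.584, and Egr1 followed Junb with an adjusted p of 0.448. Brightness over background limits Fosb and Myc most, whose signals were near the array medians of 60 to 77.8.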
